A study of Homo sapiens with 15 samples.

Results

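The insulin-like growth factor (IGF) axis was examined through 10 genes: the binding proteins IGFBP2, IGFBP3, IGFBP4, IGFBP6 and IGFBP7, the receptors IGF1R, IGF2R and INSR, and the receptor substrates IRS1 and IRS2. They were taken by gene symbol, and all 10 were among the 12995 genes measured. The libraries came from OKF6, a normal oral epithelial line, and from the oral cancer lines SCC25 (basal-like) and SCC15 (mesenchymal-like). There were 15 libraries in 5 groups of 3. Both cancer lines, in every group used here, carried Cas9 and a doxycycline-inducible guide vector against YBX1, and double-fluorescent cells had been sorted and expanded; nothing states that a line was a single clone. In the SCC25 -YBX1 and SCC15 -YBX1 groups, labelled YBX1 knockout, doxycycline had been given at 1 µg/ml, and in the SCC25 +YBX1 and SCC15 +YBX1 groups, whose genotype is labelled wild type, it had not. The sample titles carry YBX1KO in both arms of each line, and the arms differ there by DOXneg and DOXpos. OKF6 was labelled wild type, and no vector is stated for it. All groups were labelled as taken at 3 days. OKF6 and SCC25 grew in serum-free keratinocyte medium with added growth factors, whereas SCC15 grew in DMEM with serum, so line and medium cannot be told apart in any comparison with SCC15. The question addressed here was how the IGF axis differed between the lines and whether YBX1 knockdown moved it.

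IGFs bind IGF1R, a receptor tyrosine kinase, which phosphorylates IRS1 and IRS2, and these recruit PI3K and thereby activate AKT. INSR is the closely related insulin receptor. IGF2R takes up IGF2 for degradation in lysosomes and carries no kinase. Secreted IGFBPs hold IGFs outside the cell, where they can withhold them from the receptor or, once cleaved by proteases such as PAPPA, release them. IGFBP7 binds IGFs weakly. YBX1, the Y-box-binding protein, was named for its binding to the Y-box, an inverted CCAAT element of promoters.

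Promoter sequences are shown for the members in which the 250 bases before the RefSeq start held a TATA-type or CCAAT motif. RefSeq (build GRCh38.p14) gave a start for 9 of the 10 members, IGFBP7 being the exception. Capitals mark TATANA or CCAAT, on either strand and with overlapping matches merged. The IGFBP3 window is chr7:45921273-45921522 (minus strand), that of IGFBP4 is chr17:40443200-40443449 (plus strand) and that of IRS2 is chr13:109786584-109786833 (minus strand).
IGFBP3: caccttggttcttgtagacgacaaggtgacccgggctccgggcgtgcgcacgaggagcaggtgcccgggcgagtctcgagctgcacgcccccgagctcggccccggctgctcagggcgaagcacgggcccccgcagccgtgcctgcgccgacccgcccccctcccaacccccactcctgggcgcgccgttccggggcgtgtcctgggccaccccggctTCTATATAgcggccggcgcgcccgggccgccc
IGFBP4: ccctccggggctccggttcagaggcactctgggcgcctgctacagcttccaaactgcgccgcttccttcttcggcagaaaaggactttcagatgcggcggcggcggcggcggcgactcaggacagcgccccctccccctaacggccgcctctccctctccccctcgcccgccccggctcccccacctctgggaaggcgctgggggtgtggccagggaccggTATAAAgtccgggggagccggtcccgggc
IRS2: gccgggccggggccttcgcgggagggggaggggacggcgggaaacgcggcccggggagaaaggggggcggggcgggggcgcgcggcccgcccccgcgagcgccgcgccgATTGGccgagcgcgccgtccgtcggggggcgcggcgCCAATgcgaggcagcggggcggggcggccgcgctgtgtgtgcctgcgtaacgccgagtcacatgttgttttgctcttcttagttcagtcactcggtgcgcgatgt

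IGFBP3 and IGFBP4 were the 2 members with TATANA, whose first bases lay 32 and 30 bases before the IGFBP3 start (matches that overlap each other) and 29 bases before the IGFBP4 start. This motif stood in 17.7% of 35116 promoter windows of the same length. CCAAT was found in 1 member, IRS2, where its matches began 141 bases before the start on the opposite strand and 105 bases before it on the same strand. CCAAT stood in 32.0% of all windows. GGGCGG, not capitalised above, was in all 9 windows of members and in 42.6% of all windows. The windows of members were 61.2% to 81.2% G or C, against a median of 58.0% over all windows. How far this bears on the GGGCGG count was not tested. The 3 motifs were chosen after the sequences had been seen, and a match is a description of the letters only.

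The 10 genes lie on 9 chromosomes, with IGFBP2 (chr2:216632828-216664436, plus strand) and IRS1 (chr2:226731312-226799820, minus strand) sharing one. In the GENCODE 44 annotation of hg38, IGFBP3 spans chr7:45912245-45921874 on the minus strand and IGFBP4 spans chr17:40443450-40457725 on the plus strand. IGFBP6 spans chr12:53097436-53102345 on the plus strand and IGFBP7 spans chr4:57030773-57110385 on the minus strand. The receptors span chr15:98648539-98964530 (IGF1R, plus), chr6:159969082-160113507 (IGF2R, plus) and chr19:7112255-7294414 (INSR, minus), and IRS2 spans chr13:109752695-109786583 (minus). The libraries read the 3′ end of each transcript. The last 500 bases of IGFBP7 overlap POLR2B and those of IGF1R overlap SYNM-AS1, both on the opposite strand, and whether reads were counted by strand is not given in the sources used here. The other members overlap no other annotated gene there.

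Each library held between 4075290 and 6118501 reads on genes, and a single read was worth 0.138 to 0.226 CPM (counts scaled to a common library size). OKF6 replicate 1 stood apart, with a correlation of 0.824 and 0.865 with the other OKF6 libraries over 6497 genes, against 0.927 between those 2. The 10 epithelial markers summed to between 10410 and 18590 CPM in OKF6 and between 5905 and 10517 in SCC25 +YBX1. They summed to between 150 and 177 CPM in SCC15 +YBX1, where TP63 was at or under 3 reads in every library. Of the marker lists of other cell types, 2 of 9 fibroblast genes and 2 of 6 immune genes were measured, and the endothelial genes were not analysed here. The fibroblast sum was 11.3 to 30.2 CPM in SCC15 +YBX1 and 21.9 to 97.9 in SCC25 +YBX1, and the immune sum 0.337 to 1.82 and 38.3 to 44.4. The part of these differences in the results that follow was not tested. In bulk libraries such as these, fewer cells expressing a gene and less RNA per cell cannot be told apart.

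YBX1, the targeted gene, was measured at 107, 79.0 and 97.9 CPM in SCC25 +YBX1 and at 38.3, 26.0 and 12.5 CPM in SCC25 -YBX1. In SCC15 +YBX1 it stood at 34.4, 47.0 and 63.8 CPM, and in SCC15 -YBX1 at 10.2, 13.0 and 8.67 CPM. The groups did not overlap in either line. The mean was 75.2% lower in SCC25 -YBX1 and 77.5% lower in SCC15 -YBX1 on the log2 scale, but neither passed the test across all genes (limma, adjusted p = 0.290 and 0.326). In SCC15 it passed without SCC25 -YBX1 replicate 3, a library that enters only the shared estimate of the spread (adjusted p = 0.0202). YBX1 was highest in OKF6, at 108, 285 and 330 CPM, and lower than there in SCC15 +YBX1 (log2 difference -2.20, adjusted p = 0.000707) and in SCC25 +YBX1 (-1.21, adjusted p = 0.0375).

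Between the cancer lines, 9 of the 10 members differed at an adjusted p under 0.05 (limma on log2 CPM, Benjamini-Hochberg over all genes). In SCC15 +YBX1, 2 were higher than in SCC25 +YBX1, IGFBP2 and INSR, while 20.0% of all genes were called higher. The other 7 were lower, IGFBP3, IGFBP4, IGFBP6, IGFBP7, IGF1R, IRS1 and IRS2, while 23.6% of all genes were called lower. IGF2R did not pass the test. The median log2 difference over the members was -2.05, and over all genes it was -0.01. Log2 values carry 0.5 added reads. For genes with few reads, the fold change depends on that value and can lie above or below the ratio of mean CPM.

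**Figure D1:**
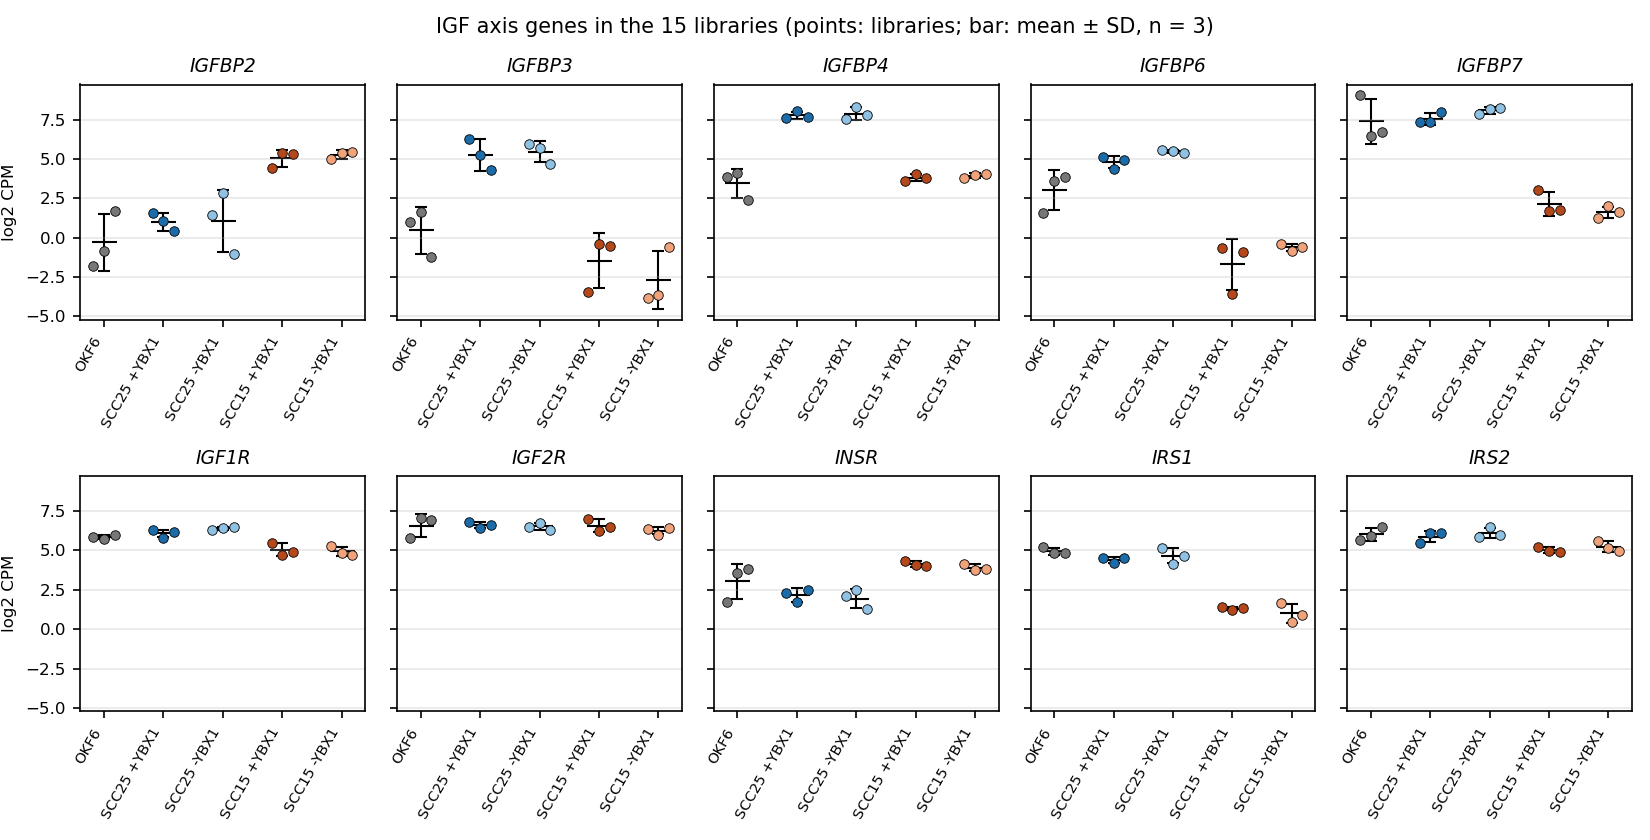
Log2 CPM (y axis) of each of the 10 genes in the 3 libraries of each of the 5 groups (x axis), with points for libraries and bars for the mean ± SD. SCC15 libraries lie below SCC25 libraries for IGFBP3, IGFBP4, IGFBP6, IGFBP7, IGF1R and IRS1 and above them for IGFBP2 and INSR. The -YBX1 and +YBX1 libraries of a line overlap except for IGFBP6 and IGF1R in SCC25.

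IGFBP2, a binding protein with high affinity for IGF2, was measured at 21.5, 41.0 and 39.9 CPM in SCC15 +YBX1. It stood at 2.82, 1.97 and 1.25 CPM in SCC25 +YBX1 and at 0.192, 0.451 and 3.20 CPM in OKF6. All SCC15 libraries lay above all others, while OKF6 and SCC25 overlapped. The log2 difference between SCC15 +YBX1 and SCC25 +YBX1 was 4.03 (SE 0.80, 16.3-fold, adjusted p = 0.00199). Against OKF6 it was 5.34 (SE 0.80, adjusted p = 0.000226), where OKF6 held 1, 2 and 19 reads, and it was 4.59 without OKF6 replicate 1 and 6.35 without replicate 3. SCC25 +YBX1 was not called different from OKF6 (1.31, 95% interval -0.45 to 3.08, adjusted p = 0.241). Without OKF6 replicate 3 this last difference was called, at 2.32 (adjusted p = 0.0134).

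IGFBP3, the main IGF carrier of serum, had its highest values in SCC25, at 77.1, 37.2 and 19.1 CPM in the +YBX1 libraries. OKF6 libraries held 1.92, 2.93 and 0.337 CPM. SCC15 +YBX1 libraries held 0, 4 and 4 reads, or at most 0.674 CPM. SCC25 libraries thus lay above all others, and OKF6 overlapped SCC15. SCC15 was lower than SCC25 by a log2 difference of -6.71 (SE 0.98, adjusted p = 0.000245), a size that depends on the value given to 0 reads and ran from -7.25 to -5.72 over the alternatives, the latter without SCC15 +YBX1 replicate 1. SCC25 was higher than OKF6 by 4.80 (SE 0.98, 27.8-fold, adjusted p = 0.00437), or by 3.945 without OKF6 replicate 3 (adjusted p = 0.0141). SCC15 did not pass the test against OKF6 (-1.92, 95% interval -4.08 to 0.24, adjusted p = 0.126), but did with quantiles set equal (-2.99, adjusted p = 0.00543) and without OKF6 replicate 3 (-2.77, adjusted p = 0.0360).

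IGFBP4, a binding protein cleaved by PAPPA, was likewise highest in SCC25, at 196, 264 and 201 CPM in the +YBX1 libraries. OKF6 stood at 14.4, 17.1 and 5.06 CPM and SCC15 +YBX1 at 11.8, 16.2 and 14.0 CPM. These groups overlapped each other and lay far below SCC25. The log2 difference was -3.97 for SCC15 against SCC25 (SE 0.40, 15.6-fold, adjusted p = 1.66e-05) and 4.33 for SCC25 against OKF6 (SE 0.40, 20.1-fold, adjusted p = 3.26e-05). SCC15 against OKF6 gave 0.36 (95% interval -0.52 to 1.25, adjusted p = 0.475).

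IGFBP6, which prefers IGF2 to IGF1, was near the limit of counting in SCC15, with 3, 0 and 3 reads in the +YBX1 libraries. SCC25 +YBX1 held 35.0, 20.9 and 29.9 CPM and OKF6 held 2.87, 12.2 and 14.7 CPM. The 3 groups did not overlap. Taking 3 reads per library as the floor, the SCC15 level was at least 52.3-fold lower than that of SCC25 and at least 18.1-fold lower than that of OKF6 (adjusted p = 9.62e-05 and 0.000724). SCC25 against OKF6 gave a log2 difference of 1.79 that was not called (SE 0.83, adjusted p = 0.130). It passed with 2 reads added before the log (adjusted p = 0.0460) and with voom weights (adjusted p = 0.0289).

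IGFBP7 was the most abundant IGFBP of OKF6, at 529, 86.4 and 106 CPM, of which the first value came from the library that stood apart. SCC25 +YBX1 libraries held 164, 159 and 253 CPM, within the OKF6 range, and SCC15 +YBX1 libraries held 8.01, 3.20 and 3.23 CPM, below every other library. SCC15 was lower than SCC25 by a log2 difference of -5.40 (SE 0.61, 42.2-fold, adjusted p = 3.92e-05). It was lower than OKF6 by -5.25 (SE 0.61, adjusted p = 3.67e-05), or by -4.42 without OKF6 replicate 1 (adjusted p = 5.91e-06). SCC25 against OKF6 gave 0.15 (95% interval -1.20 to 1.50), or 0.97 without that replicate (adjusted p = 0.0668).

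The makeup of the IGFBP reads differed by line. Since 3′ sequencing yields reads from 1 end of a transcript, reads were not divided by length, and shares are of the reads of IGFBP2 to IGFBP7. IGFBP7 took between 72.5% and 96.5% of the IGFBP reads of OKF6 libraries. In SCC25 +YBX1, IGFBP4 took between 39.7% and 54.7% and IGFBP7 between 32.9% and 50.0%. In SCC15 +YBX1, IGFBP2 took between 30.5% and 52.6% and IGFBP5, a pathway gene outside the 10, between 21.8% and 40.6%. The Wilson 95% interval of a single share, which covers counting error only, was for example 26.1% to 35.3% for the lowest IGFBP2 share in SCC15. The libraries of a group spread more widely than that, so the counting interval understates the error. All IGFBP reads together came to between 475 and 507 CPM in SCC25 +YBX1, between 70.5 and 78.1 CPM in SCC15 +YBX1 and between 119 and 548 CPM in OKF6. SCC15 lay below both, without overlap. The OKF6 range included SCC25 only through replicate 1, the library that stood apart, at 548 CPM. OKF6 replicates 2 and 3, at 119 and 129 CPM, lay below every SCC25 +YBX1 library. The denominator was chosen after the data had been seen, and no test was made on the shares.

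**Figure D2:**
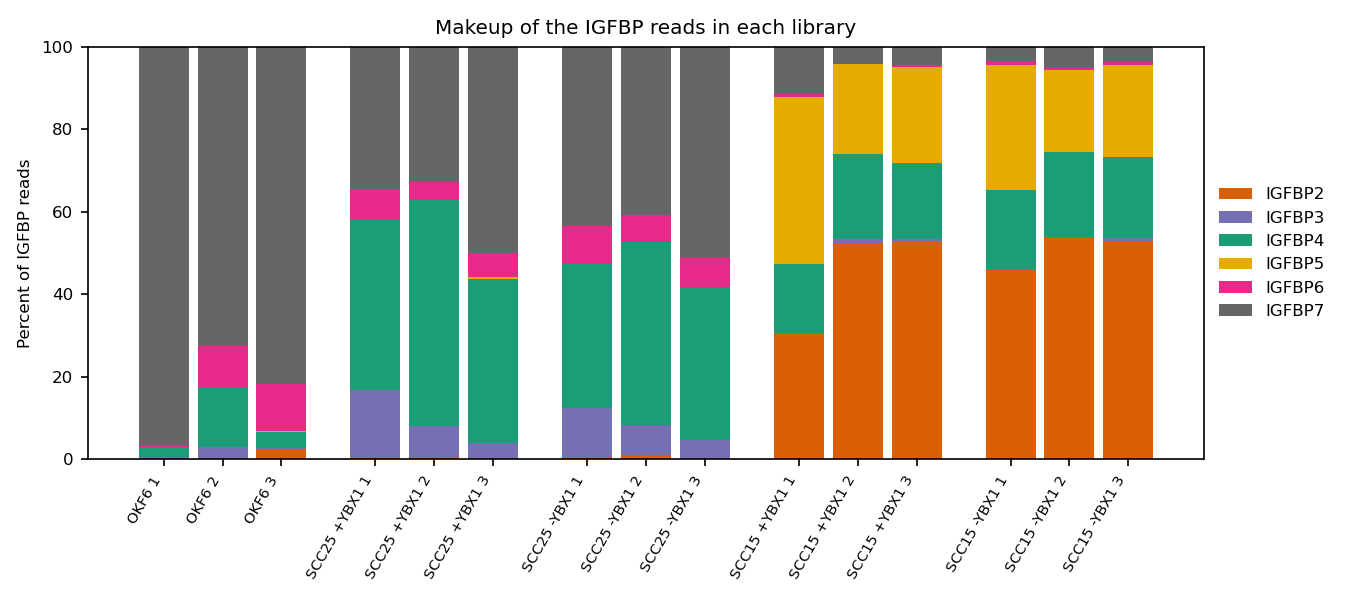
Percent of the reads of the 6 IGFBP genes (y axis) taken by each gene in each of the 15 libraries (x axis), stacked to 100. IGFBP7 fills 72.5% to 96.5% of the OKF6 bars, IGFBP4 and IGFBP7 fill most of the SCC25 bars, and IGFBP2 with IGFBP5 fills most of the SCC15 bars.

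Among the receptors the differences between lines were smaller. IGF1R stood at 77.2, 55.4 and 71.5 CPM in SCC25 +YBX1, at 58.0, 52.3 and 64.4 CPM in OKF6 and at 45.0, 26.6 and 29.9 CPM in SCC15 +YBX1. SCC15 lay below both other groups, which overlapped each other. Its log2 difference was -1.03 from SCC25 (SE 0.24, 2.04-fold, adjusted p = 0.00537) and -0.82 from OKF6 (SE 0.24, adjusted p = 0.0157). The latter was lost without SCC15 +YBX1 replicate 2 (adjusted p = 0.0673) or replicate 3 (adjusted p = 0.0579). SCC25 against OKF6 gave 0.21 (95% interval -0.32 to 0.75).

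INSR ran the other way, with 20.2, 16.5 and 15.7 CPM in SCC15 +YBX1 against 4.89, 3.15 and 5.61 CPM in SCC25 +YBX1. The log2 difference was 1.95 (SE 0.53, 3.86-fold, adjusted p = 0.0123), and it fell short of the threshold without SCC25 +YBX1 replicate 2 (1.71, adjusted p = 0.0520). OKF6 libraries, at 3.26, 11.7 and 13.8 CPM, lay below SCC15, and neither cancer line was called different from them (1.09 for SCC15, adjusted p = 0.110, and -0.86 for SCC25, adjusted p = 0.246). The lowest of the OKF6 values was again replicate 1. Without it, SCC25 was called lower than OKF6 (-1.50, adjusted p = 0.00821), and SCC15 against OKF6 gave 0.44 (adjusted p = 0.322). Without OKF6 replicate 3, by contrast, SCC15 was called higher than OKF6 (1.47, adjusted p = 0.0481).

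IGF2R was called in no comparison of the lines. Its libraries ran from 86.5 to 113 CPM in SCC25 +YBX1, from 75.4 to 129 in SCC15 +YBX1 and from 54.6 to 133 in OKF6, so all 3 groups overlapped. The log2 difference was -0.05 between SCC15 and SCC25 (95% interval -0.78 to 0.68), -0.01 between SCC15 and OKF6 (-0.74 to 0.72) and 0.04 between SCC25 and OKF6 (-0.69 to 0.77). Its sign turned with the scaling and with single libraries left out. The intervals leave room for a change of up to 0.78 on the log2 scale in either direction.

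IRS1, the substrate that couples IGF1R to PI3K, was lowest in SCC15. It stood at 2.55, 2.19 and 2.46 CPM in SCC15 +YBX1, at 22.4, 17.9 and 22.5 CPM in SCC25 +YBX1 and at 37.2, 28.0 and 28.3 CPM in OKF6. The 3 groups did not overlap. SCC15 was lower than SCC25 by a log2 difference of -3.07 (SE 0.29, 8.43-fold, adjusted p = 1.13e-05) and lower than OKF6 by -3.64 (SE 0.29, 12.5-fold, adjusted p = 2.56e-06). SCC25 against OKF6 gave -0.57 and was not called (adjusted p = 0.171).

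IRS2, its paralogue, differed less. It stood at 37.3, 31.2 and 30.0 CPM in SCC15 +YBX1, at 43.6, 68.4 and 67.4 CPM in SCC25 +YBX1 and at 50.4, 59.1 and 90.0 CPM in OKF6. SCC15 lay below the others, which overlapped. The log2 difference was -0.84 from SCC25 (SE 0.27, adjusted p = 0.0262) and -0.98 from OKF6 (SE 0.27, adjusted p = 0.0106). The first was lost in 8 of 19 alternatives, among them library medians set equal (adjusted p = 0.0595), quantile normalization (0.0930), and the fits without SCC15 +YBX1 replicate 2 (0.0748) or 3 (0.0838) or without SCC25 +YBX1 replicate 2 (0.101) or 3 (0.0979). SCC25 against OKF6 gave -0.14 (95% interval -0.73 to 0.45).

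**Figure D3:**
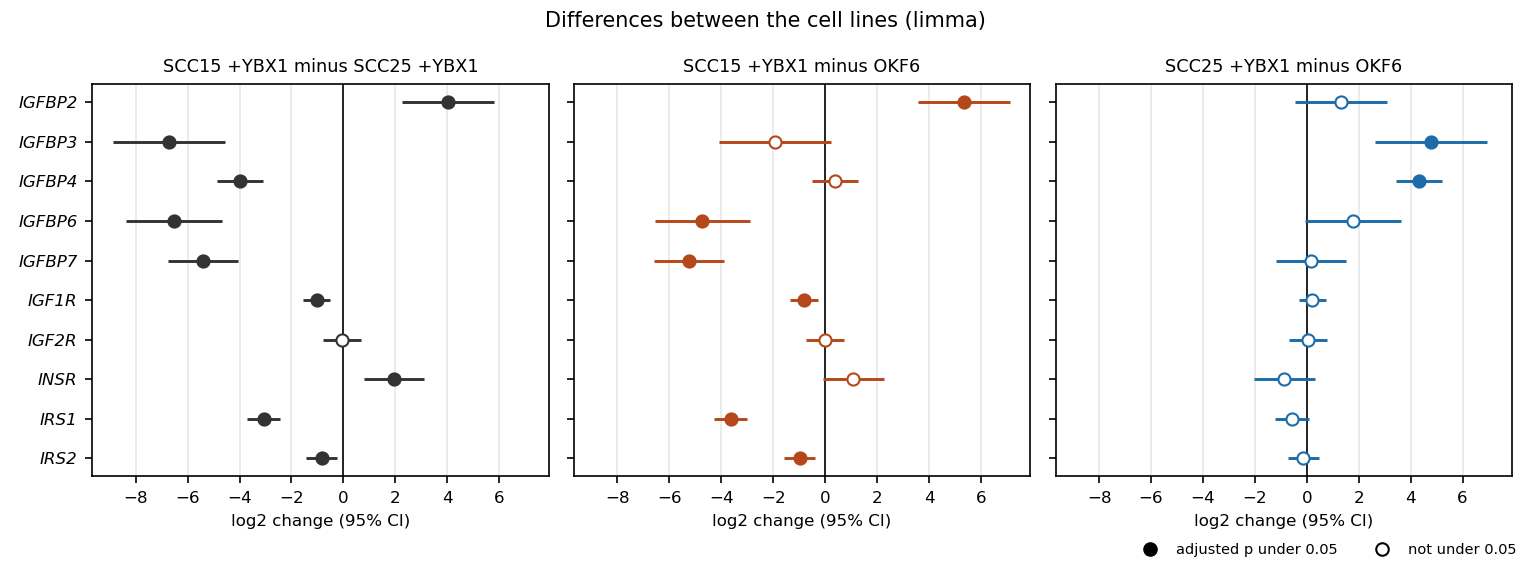
Log2 change (x axis) of the 10 genes (y axis) in the 3 comparisons of the lines, with points for the limma estimate, lines for its 95% confidence interval and filled points for an adjusted p under 0.05. The points are filled for 9 genes between SCC15 and SCC25, for 6 between SCC15 and OKF6 and for 2 between SCC25 and OKF6.

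Set against the normal line, SCC15 +YBX1 had 1 member called higher (26.9% of all genes) and 5 called lower (23.4% of all genes), as given above. SCC25 +YBX1 had 2 called higher, IGFBP3 and IGFBP4, where 18.9% of all genes were called higher, and 0 called lower, where 11.3% were. With quantiles set equal, the share of all calls between SCC25 and OKF6 that were higher moved from 62.5% to 52.2%, while the members called were still 2 higher and 0 lower. Without OKF6 replicate 1, 6 members were called for SCC15, where 57.2% of all genes were called, and 3 for SCC25, 1 of them lower, where 41% were. These comparisons share libraries and are not independent of each other.

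Of 45 further genes of the IGF pathway, 34 were measured. The IGF ligands and insulin were among those not analysed here. Between SCC15 and SCC25, SCC15 had 5 of the 34 above SCC25 and 11 below it by the same test, where 20.0% and 23.6% of all genes were, and the median log2 difference was -0.05. Between SCC15 and OKF6, 11 were called higher and 12 lower (26.9% and 23.4% of all genes), with a median of -0.32 against 0.10 over all genes. Between SCC25 and OKF6, 7 were higher and 3 lower (18.9% and 11.3% of all genes), a count of 10 that became 6 without SCC25 +YBX1 replicate 1.

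Genes grouped here as negative regulators made up 6 of the 11 genes lower in SCC15 than in SCC25, out of 7 measured. In SCC15, 5 of the 7 were lower than in OKF6. Of all genes, 23.6% and 23.4% were called lower, and the group itself was not tested. GRB10 and GRB14, inhibitory adaptors counted with the adaptors, were called higher in SCC15 than in SCC25 and in OKF6. Against OKF6 the log2 differences were 1.38 (limma adjusted p = 0.000551) and 2.99 (adjusted p = 0.0269), the second lost in 7 of 18 alternatives. SOCS1, which marks IRS proteins for degradation, held 0, 0 and 5 reads in SCC15 +YBX1 against 40, 58 and 23 in SCC25 +YBX1 and 26, 57 and 101 in OKF6. Its log2 difference was -5.34 from SCC25 (SE 0.88, adjusted p = 0.000591) and -5.80 from OKF6 (adjusted p = 0.000252), or -6.43 and -6.89 without SCC15 +YBX1 replicate 3. TRIB3, which binds AKT, was lower by -2.86 than in OKF6 (adjusted p = 0.000101), and so was NEDD4, a ubiquitin ligase (-2.91, adjusted p = 8.18e-05). INPPL1, a phosphatase of PI3K lipids, was 2.47 higher in SCC25 than in OKF6 (adjusted p = 0.000691). PTPN1 and SOCS3 were the others called lower in SCC15 against both lines, and SOCS2 was called in none of these comparisons.

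Among binding proteins and the proteases that cut them, IGFBP5 was, like IGFBP2, highest in SCC15. It held 157, 101 and 114 reads in SCC15 +YBX1, 0, 1 and 10 in SCC25 +YBX1 and 0, 0 and 1 in OKF6. SCC15 was higher than SCC25 by 5.71 on the log2 scale (SE 0.97, adjusted p = 0.000747), or by 4.68 and 6.95 without SCC25 +YBX1 replicates 1 and 3, and at least 31.1-fold higher than OKF6 (adjusted p = 0.000110). PAPPA had 0 reads in every SCC15 library against 10, 7 and 12 in SCC25 +YBX1, at least 3.51-fold lower (adjusted p = 0.00566). Against OKF6, which held 9, 0 and 24 reads, its mean CPM was at least 3.52-fold lower (limma adjusted p = 0.0190). OKF6 replicate 2 held 0 reads like SCC15, and lay apart from it in log2 CPM only through library size. HTRA1, a secreted protease of IGFBPs, was lower in SCC15 than in SCC25 by -2.72 (adjusted p = 3.72e-06). STC2, an inhibitor of PAPPA, was higher than in OKF6 both in SCC15, by 1.66 (adjusted p = 0.00147), and in SCC25, by 0.98 (adjusted p = 0.0427, limma). LRP1 and TMEM219, both described as receptors for IGFBP3, were higher in SCC25 than in OKF6 by 1.64 (adjusted p = 0.0403) and 1.43 (adjusted p = 0.00735). TMEM219 was also higher in SCC15 than in OKF6, by 1.53 (adjusted p = 0.00225, limma), where LRP1 was not called. For LRP1 the SCC25 +YBX1 libraries held 206, 131 and 665 reads, and without the last of these its difference was 0.93 (adjusted p = 0.121). It fell short of the threshold in 10 of 19 alternatives, among them each OKF6 library left out.

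The signalling genes moved in both directions. Adaptors were split, with SHC1, which links receptors to RAS, lower in SCC15 than in SCC25 (-2.75, adjusted p = 6.75e-07). GRB14, an inhibitory adaptor of INSR, was higher in SCC15 (3.42, or at least 2.80-fold, adjusted p = 0.0167), with 10, 12 and 9 reads. It was lost in 4 of 18 alternatives and was 4.16 without SCC25 +YBX1 replicate 1. GRB10, an inhibitory adaptor of INSR and IGF1R, was also higher in SCC15 than in SCC25 (1.015, adjusted p = 0.00494). SH2B2, an adaptor of INSR, was higher in SCC15 than in OKF6 by 1.61 (adjusted p = 0.0272), a call lost in 7 of 18 alternatives. Among them were quantile normalization (1.04, adjusted p = 0.139), the fit of the compared groups only (0.0619), the replicate block (0.0504), and the fits without OKF6 replicate 1 (0.0630) or SCC15 +YBX1 replicate 1 (0.0799) or 3 (0.112). GAB1 and SOS1 were lower in SCC25 than in OKF6, by -1.66 (adjusted p = 0.0119, or 0.0548 without SCC25 +YBX1 replicate 2) and -1.005 (adjusted p = 0.00755). Both were also lower in SCC15 than in OKF6, by -1.09 (adjusted p = 0.0472) and -1.06 (adjusted p = 0.00266, limma). Of the PI3K subunits, PIK3CD (catalytic) was lower in SCC15 than in SCC25 by -3.34 (adjusted p = 1.88e-05) and higher in SCC25 than in OKF6 by 1.36 (adjusted p = 0.0126, or 0.0504 without SCC25 +YBX1 replicate 1). PIK3R3 (regulatory) was higher in SCC15 than in SCC25 by 1.86 (adjusted p = 0.00559). PIK3R1 (regulatory) was lower than in OKF6 both in SCC15 (-3.32, adjusted p = 3.23e-05) and in SCC25 (-3.09, adjusted p = 0.000211).

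AKT1, a kinase downstream of PI3K, was higher than in OKF6 both in SCC25, by 1.54 (adjusted p = 0.000718), and in SCC15, by 0.94 (adjusted p = 0.00559, limma). FOXO4, a transcription factor that AKT holds out of the nucleus, stood at 5.97, 5.63 and 6.00 log2 CPM in SCC15 +YBX1. It stood at 1.72, 1.05 and 1.94 log2 CPM in SCC25 +YBX1, a difference of 4.30 (SE 0.70, adjusted p = 0.000517). It was also higher in SCC15 than in OKF6, by 4.48 (adjusted p = 0.000299), or by 5.37 and 3.73 without OKF6 replicates 1 and 3.

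**Figure D4:**
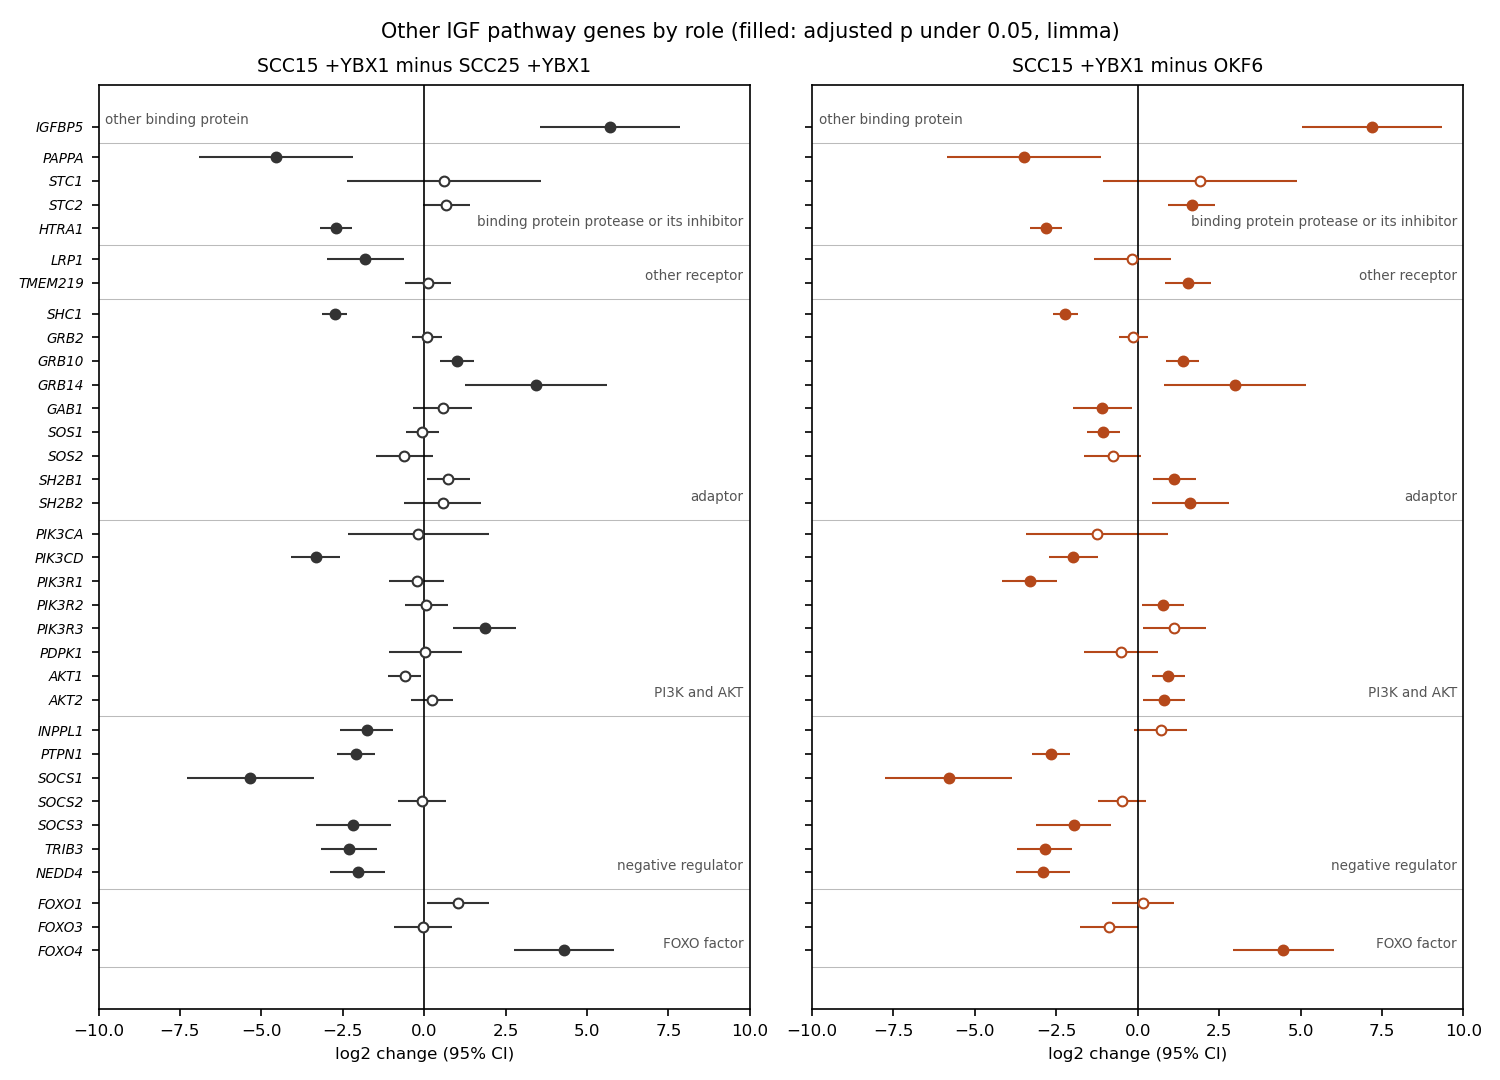
Log2 change (x axis) with its 95% confidence interval for the 34 other IGF pathway genes (y axis), grouped by role, for SCC15 +YBX1 against SCC25 +YBX1 (left) and against OKF6 (right). Filled points have an adjusted p under 0.05: 16 genes on the left and 23 on the right, with 6 and 5 of the 7 negative regulators lower in SCC15. The inhibitory adaptors GRB10 and GRB14 are grouped with the adaptors and are higher in SCC15 in both panels.

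The genes with the most similar pattern over the 5 group means were sought for the 7 members whose means spanned over 2 log2 units, by the Euclidean distance between centred means. The nearest to IGFBP3 were PLAAT4 (distance 0.37 log2 units), OASL (0.45) and KYNU (0.74), all with means at or near 0 reads in SCC15. IGFBP2 was nearest to HLF (0.27), DCLK2 (0.38) and RUNDC3B (0.39), and IGFBP4 to SORCS2 (0.25), TNFRSF9 (0.38) and TENM1 (0.50). IGFBP6 was nearest to APOL3 (0.66), COPZ2 (0.76) and MNS1 (0.83), and IGFBP7 to RUNX1-IT1 (0.32), CIDEB (0.37) and KDF1 (0.41). IRS1 was nearest to IGSF9 (0.10), NAPRT (0.18) and CORO2A (0.20), and INSR to UBXN8 (0.14), PICK1 (0.19) and SERBP1 (0.21). HLF, DCLK2 and TENM1 had 0 reads in every OKF6 library. The same held for APOL3, COPZ2, MNS1, RUNX1-IT1 and CIDEB in SCC15 +YBX1, so these distances depend on the value given to 0 reads. The likeness is a description over 5 means and carries no test.

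YBX1 knockdown left the 10 genes without a call in either line. In SCC25, 0 of 10 members passed (0.00% of all genes), and in SCC15 likewise 0 of 10 (0.00%). No member had an unadjusted p under 0.05 in either line by limma, against 401 of the 12995 genes in SCC25 and 302 in SCC15. With voom weights again 0 members were called, and those with an unadjusted p under 0.05 were 2 in SCC25 (IGFBP6 and IGFBP7) and 0 in SCC15. The limma fit of the compared groups only gave the same 2 in SCC25 and 0 in SCC15. The 34 pathway genes gave 0 calls in each line, with 0 and 1 of them under an unadjusted 0.05 by limma and 1 and 2 with voom weights. The median log2 change of the members was 0.22 in SCC25 and -0.16 in SCC15, against -0.02 and -0.01 over all genes.

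The intervals of the members differed in width. In SCC25, the log2 difference was 0.21 for IGFBP3 (95% interval -1.79 to 2.21) and 0.07 for IGFBP2 (-1.46 to 1.59), so changes of several fold were not detectable there. IGFBP4 gave 0.09 (-0.37 to 0.55), IGF2R -0.10 (-0.54 to 0.34) and IRS2 0.24 (-0.27 to 0.74). INSR gave -0.24 (-0.99 to 0.52) and IRS1 0.27 (-0.50 to 1.04). In SCC15, IGFBP4 gave 0.13 (-0.33 to 0.59), IGF1R -0.11 (-0.58 to 0.36), IGF2R -0.31 (-0.76 to 0.13) and IRS2 0.21 (-0.29 to 0.72). IGFBP2 gave 0.24 (-1.28 to 1.77), INSR -0.22 (-0.97 to 0.53) and IRS1 -0.31 (-1.08 to 0.45). IGFBP3 held 0, 4 and 4 reads without doxycycline and 0, 0 and 4 with it.

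In SCC25, IGFBP6 stood at 35.0, 20.9 and 29.9 CPM without doxycycline and at 47.1, 46.1 and 41.0 CPM with it. IGF1R stood at 77.2, 55.4 and 71.5 CPM and at 79.3, 85.1 and 88.5 CPM. For these genes the groups did not overlap, as for 7.31% of all genes, but the log2 changes of 0.67 (SE 0.61, adjusted p = 1.00) and 0.32 (SE 0.22, adjusted p = 1.00) were not called. In SCC15 the groups overlapped for every member, where 7.04% of all genes did not. IGFBP6 there held 3, 0 and 3 reads without doxycycline and 5, 3 and 4 with it. Within same-numbered pairs, 3 members were higher with doxycycline in every SCC25 pair (IGF1R, IGFBP6 and IGFBP7), and 22.5% of all genes differed one way in all 3 pairs. In SCC15 this held for 6 members, where it did for 28.2% of all genes. IGFBP2, IGFBP6 and IRS2 were higher in every SCC15 pair, and IGF2R, INSR and IGFBP3 lower. Both IGFBP3 libraries held 0 reads in replicate 1 and 4 reads in replicate 3, so its sign in these pairs came from library size alone. The sign of IGFBP6 rested on the few reads given above.

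The log2 difference of IGFBP7 with knockdown was 0.53 in SCC25 (SE 0.33) and -0.53 in SCC15 (SE 0.33). Its same-numbered libraries differed by 0.47, 0.88 and 0.23 log2 units in SCC25 and by -1.75, 0.26 and -0.11 in SCC15, so that SCC25 moved one way in each pair and SCC15 did not. The difference between the lines was 1.06 (SE 0.47, 95% interval 0.05 to 2.06, limma adjusted p = 1.00), and it was not called. None of the members or pathway genes was called for this difference (0 of 10 and 0 of 34, with 0.00% of all genes), although 1 member, IGFBP7, and 294 of all genes had an unadjusted p under 0.05 by limma. Of the pathway genes 1 did so. Fits with voom weights gave 0 calls with 0 members and 1 pathway gene under that value.

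**Figure D5:**
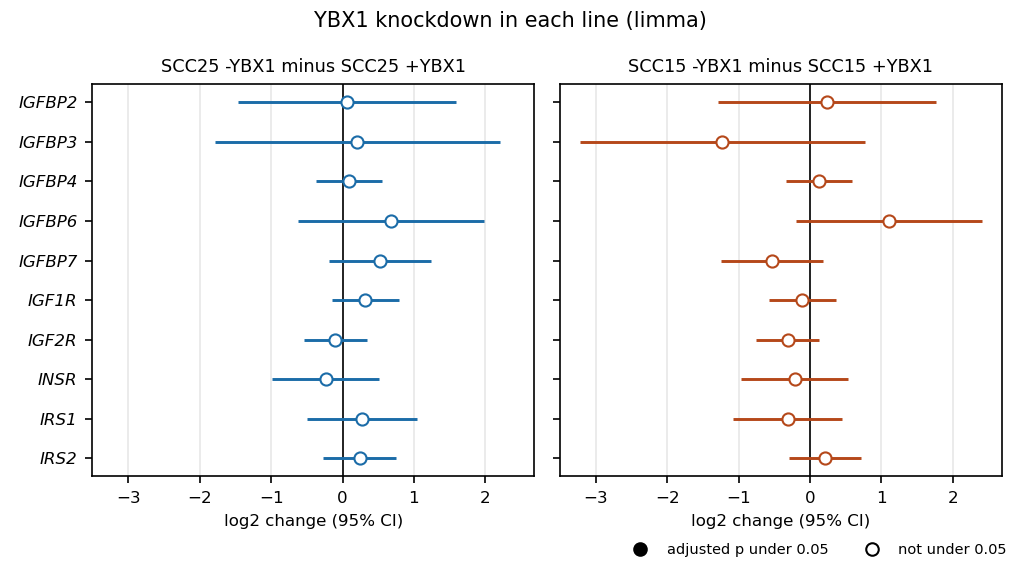
Log2 change (x axis) of the 10 genes (y axis) between -YBX1 and +YBX1 libraries in SCC25 (left) and SCC15 (right), with lines for the 95% confidence interval. Every interval crosses 0 and no point is filled; the widest belong to IGFBP3 and IGFBP2.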

How the data were processed

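Libraries were of the QuantSeq 3′ FWD type. Reads had been trimmed (Cutadapt), mapped to hg38 (HISAT2) and assigned to genes (featureCounts) by the authors, who used limma for normalisation and for a filter on genes. The deposited tables hold log2 CPM values, log2 of the reads plus 0.5 over the normalised library size. Reads recovered from these values were whole numbers for 100% of them, within 0.01 reads or 0.01 of the count, whichever was larger. For high counts that tolerance admits any value, so the check bears on low counts only. The 6 libraries present in both tables differed by at most 5e-08.

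Comparisons used limma 3.58.1 under R 4.3.3 (variance trend, two-sided), with all groups of a table in the fit and Benjamini-Hochberg adjustment over 12995 genes at 0.05. Error bars are SD or the limma SE. Where every library of a group held at most 3 reads, a fold is a lower bound: the other group's mean CPM over the highest CPM that 3 reads are worth. Same-numbered libraries of 1 line deviated together (r = 0.135, 0.470 and 0.425 in SCC25, 0.498, 0.312 and 0.117 in SCC15). Some libraries of different number did so as much. SCC25 +YBX1 replicate 3 with -YBX1 replicate 1 gave 0.239. SCC15 +YBX1 replicates 2 and 3 with -YBX1 replicates 3 and 2 gave 0.345 and 0.175. Other libraries of different number ran down to -0.529. The numbers come from the labels, and whether they pair the knockdown samples is not settled by these values. They did not pair libraries of different lines. Nothing says that replicates were separate cultures, so p-values measure only the spread between these samples.

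Other pathway genes were named by a rule: per comparison, up to 5 higher and 5 lower with the largest change, called and without overlap in log2 CPM. PTPN1, SOCS2 and SOCS3 were named outside it, after their values were seen, to complete a count. Some differences from OKF6 were likewise added outside it, for genes already named (AKT1, GAB1, GRB10, LRP1, SOS1, STC2 and TMEM219). Some genes of the pathway list are not reported here. The members and lists were chosen with earlier results of these data known. The code was tested on simulated data.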

Additional observations from a re-analysis of the deposited data

How the results depend on the processing

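Leaving out each library in turn gave 7 to 9 members called between SCC15 and SCC25, 5 to 8 between SCC15 and OKF6 and 2 to 3 between SCC25 and OKF6, and 0 in both knockdown comparisons and in their difference. For the 34 pathway genes it gave 14 to 19, 18 to 23 and 6 to 14, and again 0 for the knockdown. The lowest of these last, 6, came without SCC25 +YBX1 replicate 1. With a threshold of 0.01 the pathway count for SCC25 against OKF6 was 5. With genes below the first quartile of mean level removed, 8 members (not IGFBP2 or IGFBP3) were tested, and the members called for SCC25 against OKF6 numbered 1, since IGFBP3 was not tested.

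With the replicate block, 0 members were called in SCC25 and 0 in SCC15, so blocking by replicate number changed no knockdown call of a member. The calls between lines stayed at 9, 6 and 2. Library medians set equal moved the members by 0.15 log2 units between SCC15 and SCC25 and by 0.16 between SCC15 and OKF6.

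Signs turned only for values that were not called. IGF2R gave 0.11 (medians equal) and 0.22 (quantiles equal) for SCC15 against SCC25, 0.16 and 0.080 for SCC15 against OKF6, and -0.14 (quantiles equal) for SCC25 against OKF6, where IGFBP7 gave -0.029. With libraries left out, IGF2R ran from -0.26 to 0.12, from -0.41 to 0.23 and from -0.36 to 0.28 in these 3 comparisons, and from -0.21 to 0.0053 in the SCC25 knockdown. Also against OKF6, IGFBP4 ran from -0.18 to 0.70 in SCC15, and in SCC25 IGFBP7 ran from -0.33 to 0.97 and IRS2 from -0.32 to 0.10. In the SCC25 knockdown the ranges were -0.83 to 1.13 for IGFBP2, -0.29 to 0.72 for IGFBP3, -0.13 to 0.27 for IGFBP4 and -0.50 to 0.10 for INSR. In the SCC15 knockdown they were -0.27 to 0.11 for IGF1R and -0.059 to 0.40 for IGFBP2. The cause of these changes was not tested.

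Pathway calls that rest on few reads were lost with single libraries. GRB14 fell short between SCC15 and SCC25 without SCC15 +YBX1 replicate 2 (adjusted p = 0.0504) or SCC25 +YBX1 replicate 2 or 3 (0.0650 and 0.0629), and PAPPA against OKF6 without OKF6 replicate 3 (0.0682) or SCC15 +YBX1 replicate 2 or 3 (0.0507 and 0.0531). At this depth IGFBP3 and IGFBP6 held at most 5 reads in any SCC15 library, so the size of a knockdown effect on them there could not be resolved.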
